A study of Mus musculus with 2 samples.

Results

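The crypt base of the small intestine is marked by a set of genes besides Lgr5, the receptor gene that defines its stem cells. The 10 genes described here are Olfm4, Smoc2, Ascl2, Sox9, Prom1, Rgmb, Slc14a1, Msi1, Cdca7 and Rnf32. They were taken by name, as rows of the value table that the array's annotation gives to 1 of these symbols alone, out of 19702 named genes in all. Each of the 10 had 1 row. The cells were GFP-positive intestinal stem cells, flow sorted from the small intestine of mice aged 8 weeks. Both groups carried the Lgr5GFP-CreERT2 allele, which places GFP and an inducible Cre under control of Lgr5, and they differed in circPan3, a circular RNA of the Pan3 gene: 1 group was circPan3+/+ and the other circPan3-/-. Total RNA of each group was hybridised to 1 Affymetrix Clariom D mouse array. The sources used here do not say how many mice gave each sample. With 1 array per genotype no value below has an error and no difference has a test; each comparison is between these arrays, and their number limits the precision.

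Crypt base columnar cells divide at the bottom of the crypt between Paneth cells, and their daughters move upward through a transit-amplifying zone. Wnt signals from Paneth cells and the surrounding stroma maintain them, and Notch signalling between neighbouring cells keeps them from entering the secretory lineage. Several of the 10 genes, among them Ascl2 and Sox9, are known Wnt targets, while Olfm4 is known to depend on Notch. The markers differ in how tightly they follow the stem cell: Olfm4, Smoc2 and Ascl2 are used as close markers of it, whereas Sox9 is also made by Paneth cells, Prom1 extends above the stem cell zone, and Cdca7 follows dividing cells.

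The sequence before the start site is shown for Olfm4, which was lower on the circPan3-/- array, Rgmb, which was higher, and Ascl2, which lay within 2-fold. These were the 3 members whose RefSeq window of 250 bases upstream lay wholly outside the gene. Coordinates are those of RefSeq on GRCm38.p6: chr14:80000052-80000301, plus strand, for Olfm4; chr17:15831247-15831496, minus strand, for Rgmb; and chr7:142969265-142969514, minus strand, for Ascl2. Each reads 5′ to 3′ on the strand of its gene, and capitals mark the E-box CANNTG, the site class that ASCL2 and other basic helix-loop-helix factors bind, and the core TGGGAA of the Notch effector RBPJ.
Olfm4: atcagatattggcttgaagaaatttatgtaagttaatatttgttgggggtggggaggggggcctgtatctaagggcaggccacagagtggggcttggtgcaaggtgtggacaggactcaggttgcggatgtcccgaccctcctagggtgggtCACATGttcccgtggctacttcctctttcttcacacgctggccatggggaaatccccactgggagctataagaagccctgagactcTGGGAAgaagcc
Rgmb: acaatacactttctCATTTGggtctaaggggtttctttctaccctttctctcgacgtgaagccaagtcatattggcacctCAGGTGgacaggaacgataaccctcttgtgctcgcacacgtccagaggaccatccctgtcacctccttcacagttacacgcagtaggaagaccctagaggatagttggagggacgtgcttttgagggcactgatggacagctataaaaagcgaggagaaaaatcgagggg
Ascl2: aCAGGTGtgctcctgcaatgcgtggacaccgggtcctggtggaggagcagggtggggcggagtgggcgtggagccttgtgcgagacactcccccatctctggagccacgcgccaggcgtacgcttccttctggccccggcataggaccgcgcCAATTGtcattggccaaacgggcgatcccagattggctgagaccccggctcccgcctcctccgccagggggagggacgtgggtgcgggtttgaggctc

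Olfm4 held the RBPJ core 12 bases before its start site, counted to the first base of the motif, and 1 E-box 98 bases before it. In their printed windows Rgmb and Ascl2 held 2 E-boxes each and no RBPJ core. RefSeq windows were matched for 6 of the 10 genes, with 9 start sites in all, since Prom1 and Rgmb had more than 1 window each. The Rgmb windows not printed held no E-box, and 1 of them overlaps the printed one. The RBPJ core stood on either strand in 3 of the 9 windows, those of Olfm4, Prom1 and Cdca7, against 21.6% of all 32851 windows of the same length. The E-box stood in 5 of the 9, against 66.2% of all windows. The GC box GGGCGG stood in 6 of the 9, from 5 genes, and not in that of Olfm4, against 32.7% of all. The TCF/LEF motif ATCAAAG, searched on both strands, was in 0 of the 9 windows and in 3.21% of all; these letters are absent from the windows, which says nothing of sites elsewhere. No motif matches overlapped each other in the printed windows. These are matches of letters, not measured binding.

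All levels are RMA signals on a log2 scale, and every difference is circPan3-/- minus circPan3+/+. As a reading of background, the 5222 rows named as negative controls were used: their 95th percentile, called the control limit here, was 5.06 for circPan3+/+ and 5.56 for circPan3-/- cells. Some control rows were bright, with a 99th percentile of 8.07 and 8.14 in the same order. Whether all of them read background alone is not known. Where the dimmer value of a gene lay under its limit, the fold is a bound taken from that limit, and where the limits allow none, no fold is given. Folds and bounds are of deposited values and keep the upward shift between the arrays described next. A bound can thus exceed the difference left after that shift is removed. Over the 14632 named genes whose mean level reached the median of all rows, the median difference was 0.36, so differences carry an upward shift. It grew with level, from 0.19 in the dimmest eighth of these genes to 0.53 in the brightest, and the loess curve used below follows it. It was 0.27 in negative control rows. A set of 23 background rows of the array, which differ in the GC content of their probes, ranged from 0.45 to 6.01 for circPan3+/+ and from 0.54 to 6.35 for circPan3-/- cells. The GC content of the members' probes was not used here, so their own background within that range is not known. The columns also differed in form: repeated values filled 69.1% of the rows for circPan3+/+ cells and 4.20% of those for circPan3-/- cells.

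Lgr5 itself, which marks the sorted cells, stood at 10.91 in circPan3+/+ and 7.02 in circPan3-/- cells, with neither value under its limit. The 10 other markers did not share its direction as a group. Of the 10, 6 were at least 2-fold higher in circPan3-/- cells (Rnf32, Smoc2, Prom1, Rgmb, Sox9 and Cdca7), 2 were at least 2-fold lower (Olfm4 and Slc14a1), and Ascl2 and Msi1 were neither. Among the 14632 named genes, 9.66% reached 2-fold upward and 2.82% downward. The median difference of the 10 genes was 1.36, beside 0.36 over those named genes. The genes were chosen with earlier results of these arrays known, so these counts describe the 10 genes and carry no test.

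Many of these values lay within the range of the negative control rows. Of the 10 genes, 5 reached neither control limit: Ascl2, Smoc2, Rnf32, Msi1 and Rgmb. Over the 14632 named genes, 69.8% reached neither limit and 20.7% reached both. Olfm4 and Sox9 reached the limit on both arrays, and Prom1, Cdca7 and Slc14a1 on 1 of them. Counted by fold or bound, 2 members were at least 2-fold higher (Prom1 and Sox9) and 1 lower (Olfm4), where 3.68% of the named genes were higher and 0.588% lower by the same rule. The negative control rows themselves differed between the arrays more often than the named genes did: 22.1% of them reached 2-fold upward and 8.08% downward in the circPan3-/- column. These shares are over all 5222 control rows, dim ones included, whereas the named genes had passed a filter on level. Shares at matched level are given gene by gene below. Ascl2, Smoc2 and Rnf32, which mark crypt base stem cells in this tissue, were, like most named genes, not told from background on either array by this limit. Among members well above the limits on both arrays, the label of the set rests on Olfm4 alone. Lgr5 was also above both, but it is not a member, and the cells were sorted by GFP under its control. The reading depends on the percentile: at the 90th, 4.77 for circPan3-/- cells, Ascl2 and Smoc2 reached the limit on that array and Rnf32 did not.

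**Figure D1:**
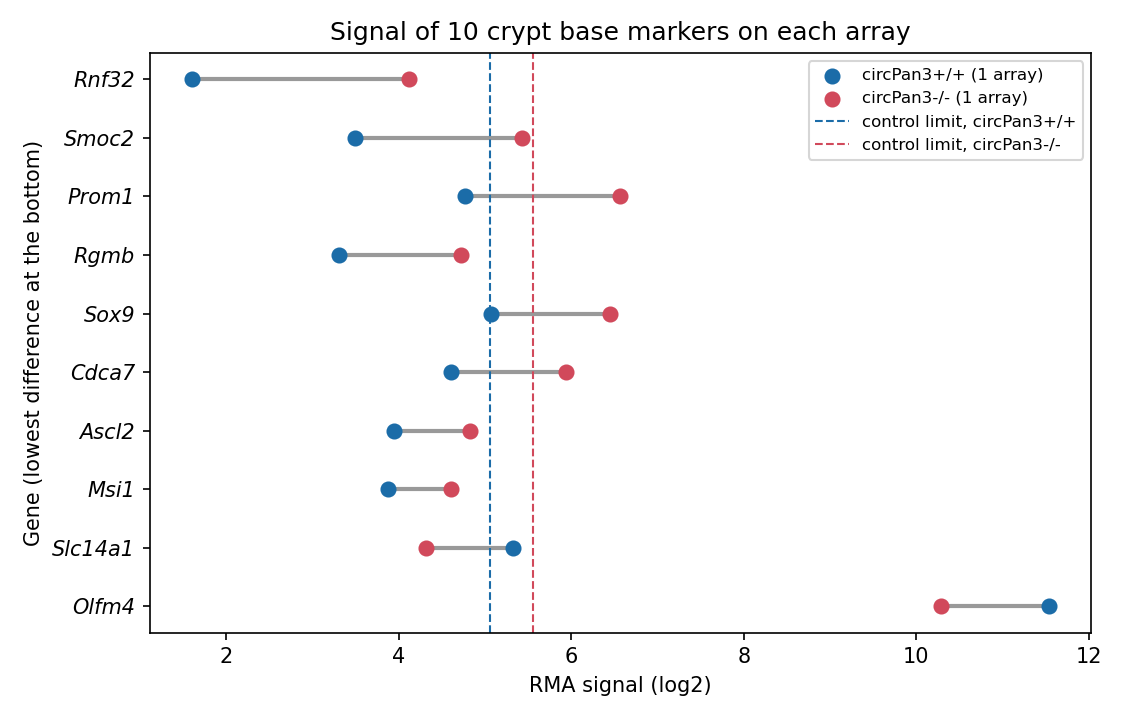
Signal of each of the 10 genes (log2 RMA signal, horizontal axis) in circPan3+/+ cells (blue) and circPan3-/- cells (red), with 1 array per genotype and no error; dashed lines are the control limits of 5.06 and 5.56. Olfm4 stands far above both limits at 11.53 and 10.28, while 5 genes lie under the limits on both arrays.

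Among the secreted products, Olfm4, an olfactomedin-domain glycoprotein used as a marker of crypt base columnar cells, gave a signal of 11.53 in circPan3+/+ cells and one of 10.28 in circPan3-/- cells. The difference was -1.25, or 2.38-fold lower. It was -1.60 relative to the median of named genes and -1.77 relative to a loess curve of the difference on mean level. Both values were above all 23 background rows, and neither was shared with another row. Of the 29 other named genes whose mean level lay within 0.5 of that of Olfm4, none was as low: their differences ran from -0.64 to 1.49, with a median over these genes and Olfm4 of 0.47. The 7 negative control rows at that level all lay above it as well. Olfm4 thus had the lowest difference of the named genes and control rows at its level, while its signal was high on both arrays. In a sorted population, fewer cells that express a gene and less of its RNA per cell cannot be told apart, here and for the other genes.

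Smoc2, a secreted calcium-binding matricellular protein related to SPARC, had 3.49 in circPan3+/+ and 5.43 in circPan3-/- cells. The difference of 1.94 lay between values under the control limits, so no fold is given. Its circPan3-/- value was 0.12 under the limit. The circPan3+/+ value stood in 639 rows of the table. Of 408 negative control rows with a mean level within 0.5 of that of Smoc2, 11.0% differed by as much or more in the same direction, against 0.908% of the 4404 other named genes at that level. The Smoc2 locus overlaps predicted noncoding genes in RefSeq, which were not separated from it here.

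Ascl2, the basic helix-loop-helix factor that directs the stem cell programme downstream of Wnt, had 3.95 in circPan3+/+ and 4.83 in circPan3-/- cells. The difference of 0.89, or 0.53 relative to the named genes, lay between values under both limits. Its level stood at percentile 88.0 of the negative control rows in circPan3+/+ cells and at 90.6 in circPan3-/- cells. Of 432 negative control rows at its level, 38.7% differed upward by as much or more, as did 12.8% of the 4409 other named genes there.

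Sox9, an HMG-box transcription factor of the crypt base that Paneth cells require, had 5.07 in circPan3+/+ and 6.45 in circPan3-/- cells. The difference was 1.37, or 2.59-fold higher, with the circPan3+/+ value 0.01 above its limit and held by 52 rows in all. Relative to the loess curve the difference was 0.87, short of 2-fold. The circPan3-/- value was above all 23 background rows, whereas 6 of them exceeded the circPan3+/+ value. Of 126 negative control rows at its level, 11.1% were as far up, and of 2238 other named genes 4.96%. Markers of Paneth cells, which also express Sox9, were higher on the same array: 6 of 6 measured genes of that list were at least 2-fold higher, and their summed linear signal was 1970 in circPan3+/+ and 8089 in circPan3-/- cells. Their part in the Sox9 difference was not tested.

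At the cell surface, Prom1, the membrane glycoprotein CD133 of cell protrusions, had 4.77 in circPan3+/+ and 6.57 in circPan3-/- cells. Its difference of 1.80 amounts to at least 2.85-fold higher in deposited values, or 1.51 in log2, when the circPan3+/+ value is set to its limit. The difference was 1.44 relative to the named genes and 1.30 relative to the loess curve, both under that bound, which keeps the shift between the arrays. Neither value was shared with another row. Of 136 negative control rows at its level, 5.15% were as far up, and of 2411 other named genes 1.70%. None of the 23 background rows exceeded its circPan3-/- value. Among the members higher in circPan3-/- cells, Prom1 had the largest bound.

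Rgmb, a co-receptor for bone morphogenetic proteins that also binds neogenin, had 3.32 in circPan3+/+ and 4.73 in circPan3-/- cells. Both values were under the limits, with a difference of 1.41 and no fold. Of 575 negative control rows at its level, 23.7% were as far up, and of 4570 other named genes 2.98%.

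Slc14a1, the urea transporter UT-B, had 5.33 in circPan3+/+ and 4.32 in circPan3-/- cells. The difference was -1.01, or -1.36 relative to the named genes. The circPan3+/+ value was 0.27 above its limit but under the limit of the circPan3-/- array, so no fold is given. Of 304 negative control rows at its level, 5.59% were as far down, and of 3996 other named genes 2.93%. The Slc14a1 locus overlaps a predicted gene in RefSeq, which was not separated from it here. Endothelial cells of some vessels also express Slc14a1, and of 7 endothelial markers measured 2 were at least 2-fold lower and 0 higher, with a median of -0.86. Of the 7, 5 exceeded the limit in circPan3+/+ cells and 1 did so in circPan3-/- cells, and their summed linear signal was 494 and 241; their part in the Slc14a1 difference was not tested.

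Inside the cell, Msi1, an RNA-binding protein that represses translation of Numb, had 3.88 in circPan3+/+ and 4.61 in circPan3-/- cells. Its difference of 0.73 was 0.37 relative to the named genes, between values under both limits. Of 479 negative control rows at its level, 44.7% were as far up, and of 4531 other named genes 20.2%, the largest such shares of the 10 genes. Its locus overlaps RefSeq genes known by clone names, which were not separated here.

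Cdca7, a zinc finger protein that recruits the chromatin remodeller HELLS, had 4.60 in circPan3+/+ and 5.94 in circPan3-/- cells. The difference was 1.34, at least 1.84-fold higher from the limit, and 0.98 relative to the named genes, just short of 2-fold. The circPan3+/+ value stood in 37 rows. Of 212 negative control rows at its level, 16.5% were as far up, and of 3243 other named genes 4.63%. Its relative Cdca7l had 4.55 and 5.71, which is 1.16 higher or at least 1.57-fold. Genes of cycling cells were higher in 4 of 11 measured cases and lower in 0, with linear signals that summed to 567 in circPan3+/+ and 1349 in circPan3-/- cells, and the proliferation marker Mki67 at 6.89 and 8.77. Their part in the Cdca7 difference was not tested.

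Rnf32, a RING finger protein, had the largest difference of the 10 genes. Its signal was 1.61 in circPan3+/+ and 4.13 in circPan3-/- cells, 2.51 apart, and neither value reached its limit. The circPan3+/+ value was at percentile 39.4 of the negative control rows and stood in 1706 rows of the table, while the circPan3-/- value, at percentile 83.8, was its own. Of 1104 negative control rows at its mean level, 3.71% were as far up, and of 2726 other named genes 0.183%.

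**Figure D2:**
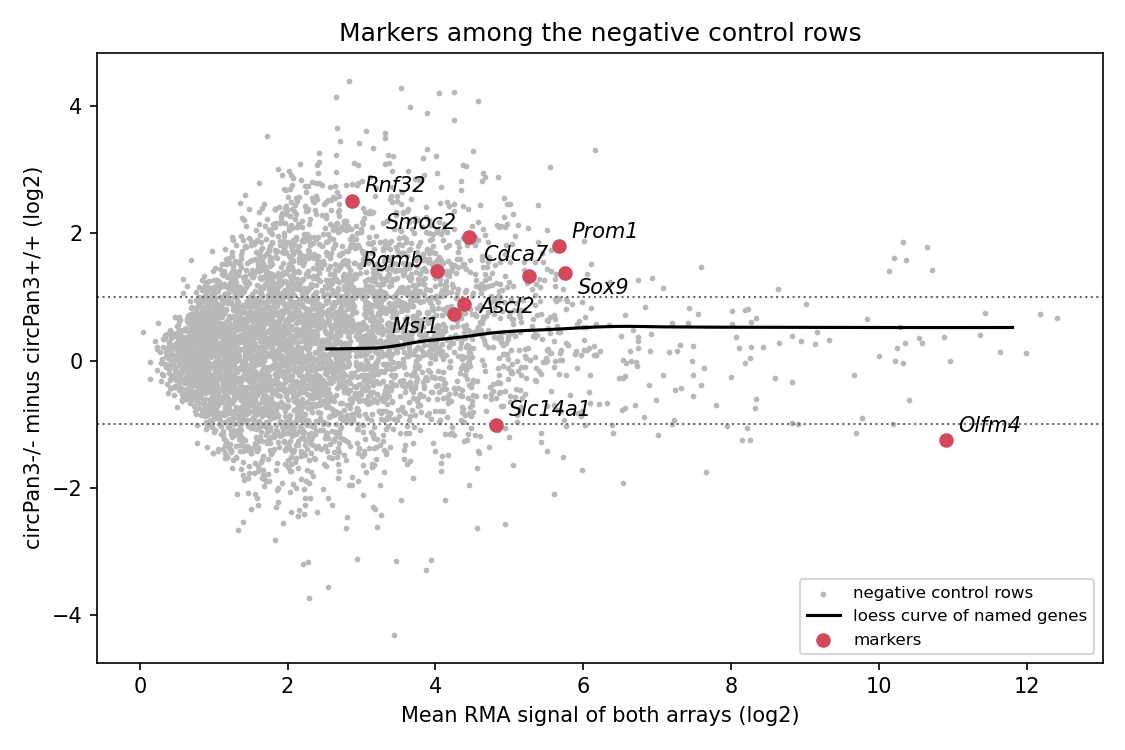
Difference (circPan3-/- minus circPan3+/+, log2, vertical axis) against the mean signal of both arrays (log2, horizontal axis) for the 5222 negative control rows (grey) and the 10 genes (red); the black line is the loess curve of the named genes and dotted lines mark 2-fold. At the level of each gene except Olfm4, some control rows differed as much in the same direction, from 3.71% of them for Rnf32 to 44.7% for Msi1. Olfm4 lies below the control rows at its level.

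Repeated values bear on the 10 genes unevenly. The circPan3+/+ value of 5 of them was also held by other rows (Rnf32, Smoc2, Sox9, Cdca7 and Ascl2, the last in 4 rows), and no circPan3-/- value was. Sharing of circPan3+/+ values was not particular to them: it held for 66.4% of the 14632 named genes. Among the other 5 genes, Prom1 and Rgmb were at least 2-fold higher, Olfm4 and Slc14a1 at least 2-fold lower, and the median difference was 0.73. The direction of each of the 10 genes was the same under each scaling tried. Relative to the median of named genes, 5 were at least 2-fold higher (Rnf32, Smoc2, Prom1, Rgmb and Sox9) and 2 lower, where 3.85% of the named genes were higher and 5.03% lower.

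**Figure D3:**
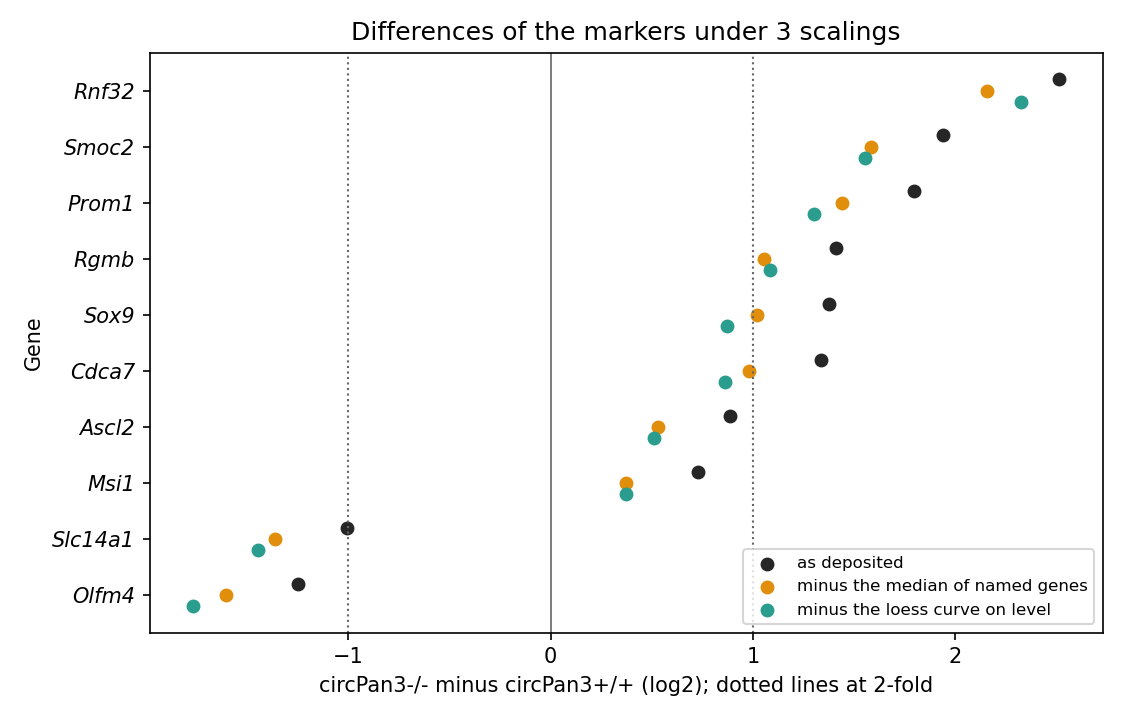
Difference of each gene (circPan3-/- minus circPan3+/+, log2, horizontal axis) as deposited (black), minus the median of named genes (orange) and minus the loess curve on level (green); dotted lines mark 2-fold. Sox9 and Cdca7 cross the 2-fold line with the scaling, whereas Olfm4 and Slc14a1 stay beyond it.

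The other genes of the crypt base signature also went both ways. Of 29 listed, 25 were measured. Of the 25, 11 were at least 2-fold higher, 2 lower and 12 neither, with a median of 0.96, and 15 reached neither limit. Among the 14632 named genes 9.66% were 2-fold higher, 2.82% lower, and 69.8% reached neither limit. Relative to the median of named genes 9 of the 25 were higher and 2 lower, beside 3.85% and 5.03% of those genes. By fold or bound, 4 were higher and 1 lower, beside 3.68% and 0.588% of the named genes. Besides Lgr5, the lower gene was Fstl1, a secreted follistatin-like protein, at 5.46 in circPan3+/+ and 4.26 in circPan3-/- cells with no fold. Slc12a2, a sodium, potassium and chloride cotransporter of crypt cells, had 5.47 and 8.39, or 7.59-fold higher. The chloride channel accessory gene Clca3b had 7.70 and 10.98, or 9.68-fold higher. Clca3b has close paralogs, among them the goblet cell gene Clca1 at 6.66 and 9.93, and whether probes are shared between them was not tested.

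Family relatives of the 10 genes mostly lay within 2-fold. Of 21 measured, 1 was at least 2-fold higher (Cdca7l, given above) and 1 at least 2-fold lower, with a median of 0.22, and 17 reached neither limit. Over all 14632 named genes 9.66% were 2-fold higher, 2.82% lower, and 69.8% reached neither limit. The lower one was Sparc, a matricellular protein of stromal cells related to Smoc2, with 7.37 in circPan3+/+ and 5.59 in circPan3-/- cells, or 3.44-fold lower. Its relative Sparcl1 had 6.29 and 6.81. Sox4, another SOX factor of crypt cells, had 4.77 and 5.68, at least 1.54-fold higher. No test compared the members with their relatives.

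Partners and regulators of the members were mostly within 2-fold. Of 17 measured, 3 were at least 2-fold higher and 0 lower, with a median of 0.32, and 8 reached neither limit. Over all 14632 named genes 9.66% were 2-fold higher, 2.82% lower, and 69.8% reached neither limit. Relative to the named genes 1 of the 17 was higher, beside 3.85% of those genes. The Notch target Hes1 had 4.75 in circPan3+/+ and 6.09 in circPan3-/- cells, at least 2.04-fold higher in deposited values, while Olfm4, also dependent on Notch, was lower. Relative to the named genes the Hes1 difference was 0.99, short of 2-fold. Notch1 had 5.26 and 5.18, and Rbpj, the effector whose core motif was searched, had 5.71 and 5.46. Bmpr1a, a receptor for the ligands that Rgmb assists, had 4.87 and 6.40, at least 2.53-fold higher in deposited values, and neogenin, Neo1, had 5.28 and 6.11. The Bmpr1a difference was 1.18 relative to the named genes. The E protein genes Tcf3, Tcf4 and Tcf12, whose products pair with factors such as ASCL2, had differences of 0.32, -0.12 and 0.77. Hells, the remodeller that Cdca7 recruits, had 0.93, and Numb 0.09. Both values of Hells, and both of Tcf4, were under the limits.

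Markers of other cells differed between the arrays in some lists and not in others. Goblet cell markers were at least 2-fold higher in 8 of 8 cases, with linear signals that summed to 1088 in circPan3+/+ and 4931 in circPan3-/- cells. Enteroendocrine markers were higher in 6 of 8, or in 3 of 8 by fold or bound, and 4 of the 8 reached neither limit. Tuft cell markers were higher in 3 of 6, with all 6 under the limits. Neither list had a lower gene past 2-fold. Enterocyte markers were lower in 4 of 9 and higher in 0. Myeloid markers were at least 2-fold lower in 9 of 10 as deposited, and in 3 of 10 by fold or bound, beside 2.82% and 0.588% of the named genes. All 10 exceeded the limit in circPan3+/+ cells, and only Lyz2, which Paneth cells also can express, did so in circPan3-/- cells. Of the T and NK cell markers 1 of 9 was lower and 0 higher, and 0 of 4 B and plasma cell markers and 0 of 5 enteric neuron and glia markers were 2-fold apart. In these lists 8 of 9, 2 of 4 and 5 of 5 markers, in that order, reached neither limit. The lower gene, Klrd1, was among them at 4.25 in circPan3+/+ and 2.21 in circPan3-/- cells. For such markers neither a change nor its absence can be read. Mesenchymal markers were higher in 2 and lower in 2 of 9, with a summed linear signal of 692 and 374, and 6 of the 9 reached neither limit. Myh11, 1 of the 2 higher, was among those 6 at 3.75 in circPan3+/+ and 5.18 in circPan3-/- cells. The brightest of the list, Vim, had 8.91 and 7.16. Immediate early genes, which respond to tissue dissociation, were higher in 6 of 6. The part of other cell types and of handling in the differences of the 10 markers was not tested, and with 1 array per genotype they cannot be told apart from the genotype.

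**Figure D4:**
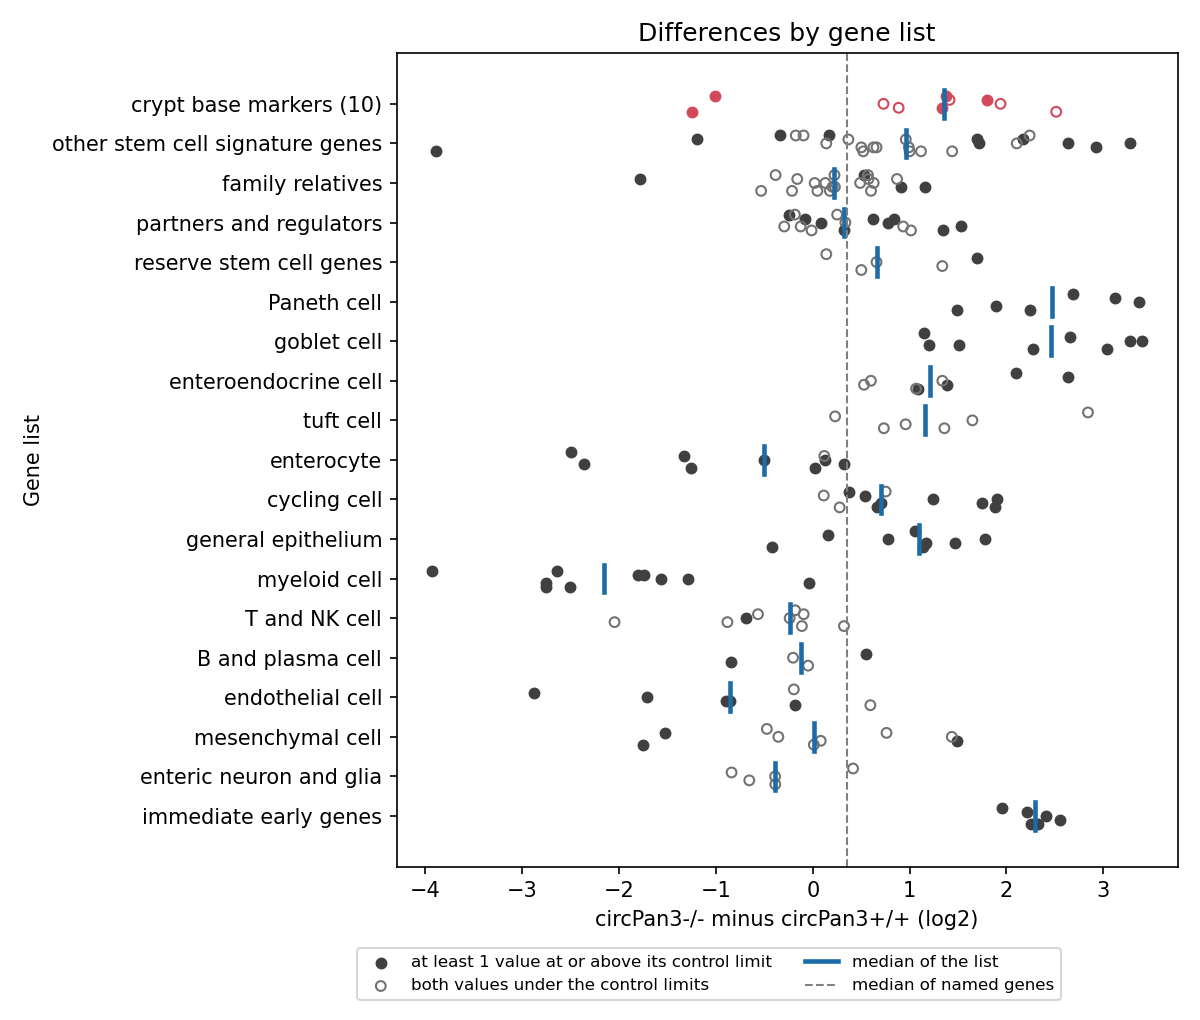
Difference of each gene (circPan3-/- minus circPan3+/+, log2, horizontal axis) by gene list, filled where at least 1 value reached its control limit and open where both were under; the blue bar is the median of the list and the dashed line the median of named genes, 0.36. The 10 crypt base markers (red) run from -1.25 to 2.51, with a median of 1.36.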

How the data were processed

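The 2 arrays were processed by the authors with Affymetrix Power Tools and RMA, per the submitters' processing notes, into deposited log2 signals, 1 for each row; the sources used here name no version, annotation or build, and the base of 2 was taken from the range of values, -0.18 to 13.07. Of 72688 rows, 31261 had 1 symbol and 1489 several, and the latter were not named. Symbols were updated through RefSeq (GRCm38.p6); predicted models and noncoding RNA genes were left out of the named genes. A gene was represented by its brightest row. Genes were called by size alone, at 2-fold. Genes named besides the members were Lgr5, the furthest past 2-fold in each list, relatives above a limit, and genes cited for a known tie to a member, the last chosen after their values were seen. The members and lists were chosen with earlier results of these data known. The loess curve used a span of 0.3 (statsmodels 0.14.6, Python 3.11.15). The code for the rules was run on simulated data with a constant shift, little noise and large planted changes. That checks the code and does not show how the rules perform on these arrays. Alternatives are given in the closing section.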

Additional observations from a re-analysis of the deposited data

How the results depend on the processing

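Each gene's difference was recomputed under 4 alternatives, and 36 of 40 values kept their side of the 2-fold threshold (averaging a symbol's rows, also tried, changes nothing because each member has 1 row); Sox9 (0.87 with loess) and Cdca7 (0.98 after centring on named genes, 0.86 with loess and 1.00, rounded up, with quantile normalization) did not. The count of members at least 2-fold higher, 6 as deposited, was 5 after centring on named genes or with quantile normalization. It was 4 with loess, where 504 of the 14632 named genes were higher. With bounds from the 90th, 95th and 99th percentiles of negative controls it was 4, 2 and 0. Among members whose circPan3+/+ value no other row held, where fewer genes are counted, it was 2. The count of lower members, 2 as deposited, was 1 with bounds from the 90th, 95th or 99th percentile, since Slc14a1 then has no fold or, at the 90th, a bound under 2-fold. The median difference of 1.36 became 1.00 after centring on named genes, 0.87 with loess, 1.01 with quantile normalization, 1.08 after centring on negative controls and 0.73 among members with unshared values. Members above the limits on both arrays numbered 2 at the 95th percentile, 4 at the 90th and 1 at the 99th. The 90th and 99th percentiles for that last count, the unshared values and the centring of counts on negative controls were added after seeing the data. No paired analysis was possible because each genotype has 1 array, and for the same reason no replicate could be left out.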

Other observations

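Genes of reserve stem cells, a slowly dividing population above the crypt base, were measured in 5 of 5 cases, and 4 of them reached neither control limit. Among these 4, Hopx differed by 1.34 and Bmi1 by 0.50. Lrig1, a feedback inhibitor of growth factor receptors, had 4.42 in circPan3+/+ and 6.11 in circPan3-/- cells, at least 2.07-fold higher. Lrig1 and Mex3a of this list were also counted among the other genes of the crypt base signature above. General epithelial genes were at least 2-fold higher in 5 of 8 cases, 2 of 8 relative to the named genes, with the adhesion gene Epcam at 8.51 and 9.65 and Krt20, a keratin of differentiated cells, at 9.56 and 9.14.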
